A study of Mus musculus with 44 samples.

Results

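Stromal cells of bone make the signals that hold blood-forming cells in the marrow and those that start or stop the formation of osteoclasts, the cells that resorb bone. Described here are 9 such genes, found by gene symbol in a table of 46831 genes: Cxcl12, Kitl, Lepr, Vcam1, Il7, Angpt1, Csf1, Tnfsf11 and Tnfrsf11b, each present once. Their mRNA and the ratio of an m6A immunoprecipitate (IP) to its input were followed across 8 wild-type (WT) skeletal populations, and in 3 of them against libraries labelled Mettl3cko.

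The 44 libraries came from long bones of C57Bl6 mice on postnatal day 3, with no treatment. Sorted WT populations were the skeletal stem cell (SSC), its progenitors pre-BCSP and BCSP (bone, cartilage and stromal progenitors), and the downstream PCP (pro-chondrogenic progenitor), THY, BLSP (B-cell lymphocyte stromal progenitor), 6C3 and HEC (hepatic leukemia factor expressing cell). Each population had 2 IP and 2 input libraries, and SSC, pre-BCSP and BCSP had the same again under the label Mettl3cko. By the study's methods the line joins floxed Mettl3 alleles (Mettl3 fl/fl) with a Col2a1-Cre transgene, so that the promoter of a cartilage collagen gene drives the loss of Mettl3, the catalytic subunit of the m6A writer, and cells that never used this promoter keep the gene. Sexes were pooled, marrow and periosteum were removed, and cells carrying the blood and endothelial antigens CD45, Ter119 and Tie2 were gated out. The label field for genotype reads wild type for all 44 libraries, so that Mettl3cko rests on titles and library names. The study itself reports loss of Mettl3 in such mice by qRT-PCR and Western blot, and lower m6A by dot blot and m6A profiles.

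As background, CXCL12 is the chemokine that retains haematopoietic stem cells and B-cell precursors through its receptor CXCR4, and KITL (stem cell factor) is the ligand of the receptor KIT. LEPR, the leptin receptor, marks the reticular stroma that makes both factors in adult marrow. VCAM1 is an adhesion molecule for integrins of blood cells, IL7 sustains lymphoid progenitors, and ANGPT1 is a ligand of the receptor TIE2 (Tek). CSF1 keeps macrophages and osteoclast precursors alive, TNFSF11 (RANKL) turns these precursors into osteoclasts through RANK (Tnfrsf11a), and TNFRSF11B (osteoprotegerin, OPG) is the soluble decoy that binds RANKL. m6A is a methyl mark on adenosines of mRNA, and an antibody against it pulls down marked fragments.

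Libraries held between 16480027 and 44046651 counts, and 3 counts, taken as the floor of detection, corresponded to 0.0631 to 0.190 CPM (counts scaled to TMM library size), with counting error only. Of the sorting antigens, Thy1 lay between 17.3 and 34.3 CPM in PCP, THY and BLSP inputs, and Enpep (the 6C3 antigen) between 40.3 and 55.4 CPM in 6C3 and HEC. Tek, which encodes the gated-out antigen Tie2, still lay between 1.5 and 8.41 CPM in PCP, THY and BLSP inputs, against at most 0.992 CPM in the other WT inputs and 0 in SSC and 6C3. Of the marker lists, 7 erythroid genes summed to 0.714 to 5.71 CPM in the 6 WT SSC, pre-BCSP and BCSP inputs, 17.7 to 146 CPM in the 10 downstream inputs and 11.8 to 51.6 CPM in the 6 inputs labelled Mettl3cko. The 8 leukocyte genes summed to at most 15.2 CPM in any input, with Ptprc (CD45) at 0 in all 6 WT SSC, pre-BCSP and BCSP inputs. The 7 endothelial genes summed to 182 and 157 CPM in the PCP inputs and to at most 38.9 CPM in the other WT inputs. Mettl3 itself was not lower in the libraries labelled Mettl3cko: over the 3 populations its log2 difference was 0.25 ± 0.15 (SE; 6 against 6 inputs; edgeR quasi-likelihood test, adjusted p = 0.362). Gene-level counts also hold reads from exons outside the deletion, which exons those are is not given in the sources used here, and the count therefore does not check the label.

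The first question was in which WT populations the 9 genes are expressed. All 9 differed among the 8 populations (edgeR quasi-likelihood F test over 16 inputs, adjusted p from 1.13e-07 for Csf1 to 0.0304 for Il7), beside 40.1% of the 20060 genes tested. PCP had the highest mean of 7 members, THY that of Csf1 and SSC that of Tnfrsf11b. In bulk samples fewer expressing cells and less RNA per cell cannot be told apart.

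**Figure D1:**
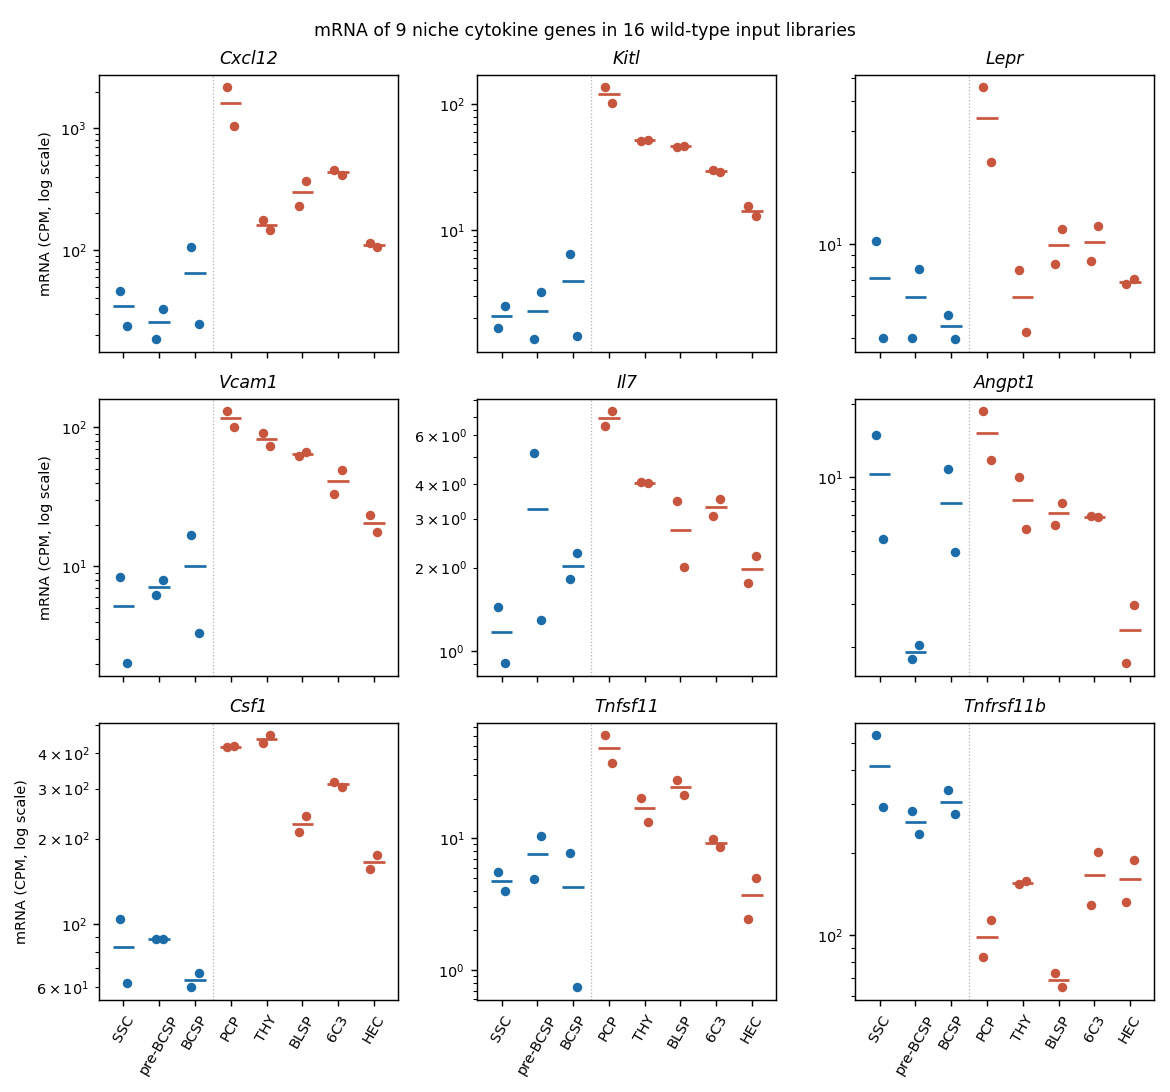
Each panel plots 1 gene in CPM on a log axis for the 8 WT populations; points are the 2 input libraries, bars their mean, blue SSC, pre-BCSP and BCSP, red the downstream populations. Kitl, Vcam1 and Csf1 were lower in every blue library than in any red one, Tnfrsf11b higher.

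Cxcl12 (ENSMUSG00000061353.11, chromosome 6 from 117168535 to 117181367 of GRCm38, plus strand) spanned the widest range of CPM among the members. Its inputs held 46.1 and 23.6 CPM in SSC, 18.5 and 32.9 in pre-BCSP, 106 and 24.4 in BCSP, 2190 and 1050 in PCP, 176 and 145 in THY, 229 and 373 in BLSP, 459 and 414 in 6C3, and 114 and 105 in HEC. SSC, pre-BCSP and BCSP libraries were thus low, PCP stood above all others, and the groups touched only where the first BCSP library reached the HEC level. The mean over the 3 stem and progenitor populations differed from that over the 5 downstream ones by -3.10 ± 0.30 on the log2 scale, lower in the former (SE; edgeR, adjusted p = 4.43e-07). In the order of the means, PCP differed from its neighbour 6C3 (adjusted p = 0.0426), whereas no other pair of neighbours, from 6C3 through BLSP, THY, HEC, BCSP and SSC to pre-BCSP, passed the test (adjusted p between 0.313 and 0.915).

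Kitl (ENSMUSG00000019966.18, chromosome 10 from 100015630 to 100100416, plus strand) showed the largest difference of the members. It was measured at 1.68 and 2.47 CPM in SSC, 1.36 and 3.20 in pre-BCSP, 6.46 and 1.45 in BCSP, 137 and 103 in PCP, 51.0 and 52.2 in THY, 45.6 and 47.0 in BLSP, 30.3 and 28.9 in 6C3, and 15.5 and 13 in HEC. No stem or progenitor library reached the lowest downstream one. The log2 difference was -3.98 ± 0.28 (adjusted p = 1.5e-08), and the only neighbours in the order that differed were HEC and BCSP (adjusted p = 0.00951).

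Vcam1 (ENSMUSG00000027962.14, chromosome 3 from 116109949 to 116129688, minus strand) followed the same order of downstream populations as Kitl. Its 6 stem and progenitor inputs had a lowest value of 2.02, a median of 7.12 and a highest of 16.9 CPM, against 17.8, 63.9 and 130 CPM in the 10 downstream inputs, without overlap. The difference was -2.97 ± 0.33 (adjusted p = 1.76e-06). No pair of neighbours in its order passed the test.

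Lepr (ENSMUSG00000057722.17, chromosome 4 from 101717404 to 101815352, plus strand) was low throughout except in PCP, with 45.8 and 22.1 CPM there. The other 14 inputs lay between 3.96 and 11.9 CPM, so that SSC, pre-BCSP and BCSP overlapped with THY, BLSP, 6C3 and HEC. Its difference of -0.92 ± 0.25 (adjusted p = 0.00558) rested on PCP: without the PCP libraries it was -0.51 (adjusted p = 0.108), and PCP differed from 6C3, the next population (adjusted p = 0.0394).

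Il7 (ENSMUSG00000040329.14, chromosome 3 from 7569994 to 7613760, minus strand) was low throughout, with 6.48 and 7.31 CPM in PCP and between 0.905 and 5.18 CPM elsewhere. The BLSP population, named for its link to B cells, held 3.47 and 2.01 CPM. Its difference of -0.84 ± 0.29 (adjusted p = 0.025) was not called without the PCP libraries (-0.59, adjusted p = 0.143), nor without the second SSC, the second pre-BCSP, the first BCSP or the first BLSP input (adjusted p between 0.0536 and 0.0789). Its difference among the 8 populations was not called without the second SSC input, either PCP input, either THY input or the first HEC input (adjusted p between 0.0509 and 0.115).

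Angpt1 (ENSMUSG00000022309.9, chromosome 15 from 42424723 to 42676977, minus strand) was the only member without a call in this contrast (-0.36 ± 0.25, adjusted p = 0.241), although it differed among the populations (adjusted p = 0.00195). It was highest in PCP with 18.7 and 11.8 CPM, followed by SSC with 15 and 5.60. THY held 10 and 6.15 CPM, BCSP 10.8 and 4.92, BLSP 6.35 and 7.87, and 6C3 6.93 and 6.86. Low values were found in pre-BCSP, 1.79 and 2.05 CPM, and in HEC, 1.72 and 2.98 CPM. Leaving out the first SSC input gave -0.64 (adjusted p = 0.0454).

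Csf1 (ENSMUSG00000014599.10, chromosome 3 from 107741048 to 107760469, minus strand) was well expressed in every population. The stem and progenitor inputs held 104 and 62.4 CPM in SSC, 88.8 and 89.0 in pre-BCSP, and 60 and 67.4 in BCSP. Downstream it held 420 and 423 CPM in PCP, 435 and 461 in THY, 211 and 241 in BLSP, 317 and 303 in 6C3, and 157 and 175 in HEC. The groups did not overlap and the difference was -1.95 ± 0.12 (adjusted p = 2.46e-09). HEC and pre-BCSP were the only neighbours that differed (adjusted p = 0.00549).

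Tnfsf11 (RANKL, ENSMUSG00000022015.8, chromosome 14 from 78277445 to 78308043, minus strand) was highest in PCP with 60.2 and 37.1 CPM and in BLSP with 27.8 and 21.3. THY held 20.3 and 13.4 CPM, 6C3 held 9.80 and 8.54, and HEC held 2.46 and 5.03. SSC held 5.54 and 3.97 CPM, pre-BCSP 4.91 and 10.4, and BCSP 7.74 and 0.740. PCP, BLSP and THY thus lay above every stem and progenitor library, while 6C3 and HEC overlapped with them. The difference was -1.48 ± 0.35 (adjusted p = 0.0023), with no difference between any neighbours in the order.

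Tnfrsf11b (OPG, ENSMUSG00000063727.3, chromosome 15 from 54250619 to 54278484, minus strand) was the only member higher in the stem and progenitor populations. SSC held 534 and 292 CPM, pre-BCSP 283 and 234, and BCSP 337 and 276. Downstream it held 83.0 and 114 CPM in PCP, 154 and 157 in THY, 72.5 and 64.5 in BLSP, 129 and 201 in 6C3, and 132 and 188 in HEC. The groups did not overlap and the difference was 1.35 ± 0.15 (adjusted p = 1.26e-06).

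Counted together, 7 of 9 members were lower in SSC, pre-BCSP and BCSP, beside 28.3% of all genes tested, and 1 was higher, beside 23.1%. The median difference of the members was -1.48, against -0.11 over all genes. In 3 members every stem and progenitor library was below every downstream one, as in 8.33% of all genes, and in 1 member above, as in 8.20%. PCP also carried the endothelial values given above, among them 51.1 and 42.5 CPM of Pecam1, and 242 and 108 CPM of Mmp9, a protease of osteoclasts and late cartilage. Without the PCP libraries 6 of 9 members kept a call, and Cxcl12, Kitl, Vcam1, Csf1, Tnfsf11 and Tnfrsf11b were these 6. The 7 osteoclast genes summed to 632 and 380 CPM in PCP and to 95.4 to 410 CPM in the other WT inputs. Downstream inputs also held more erythroid marker RNA, as above, and more osteoblast marker RNA (7 genes, 66500 to 144000 against 5410 to 11300 CPM). Their 4 mural genes summed to 760 to 2860 against 463 to 680 CPM, without overlap, with 1700 and 2860 CPM in PCP. Their 6 chondrocyte genes summed to 7760 to 98100 CPM with a median of 18600, against 88900 to 107000 CPM. This sum was 16900 and 20200 CPM in PCP, 42900 and 84700 in 6C3, and 77400 and 98100 in HEC. The part of these cells in the differences was not tested.

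Levels were scaled by length (CPM per kilobase of exon, GENCODE vM21), so that genes can be set side by side. On this scale Tnfrsf11b and Cxcl12 exchanged places between SSC and PCP, while Csf1 and Tnfsf11 kept theirs. Length was that of all annotated exons together, for Vcam1 8870 bases against 3469 in its longest coding transcript, and the order can depend on this choice. In SSC the mean level of Tnfrsf11b was 147 CPM per kilobase, followed by Csf1 with 15.8, Cxcl12 with 4.26, Tnfsf11 with 2.13 and Angpt1 with 1.97. In PCP the mean level of Cxcl12 was 198 CPM per kilobase, followed by Csf1 with 79.9, Tnfrsf11b with 35.0, Tnfsf11 with 21.8 and Kitl with 20.4. OPG mRNA was thus the most abundant of the 9 in SSC, and Cxcl12 mRNA in PCP.

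Promoters of 3 members that were lower together in the stem and progenitor populations are shown, since the table of RefSeq promoters holds them and their windows end at the gene start. They span the 250 bases before the start (RefSeq, GRCm38.p6). Capitals mark letters searched for on both strands: TATAAA (in 12.4% of 32851 promoter windows of this length), GGGCGG (32.7%), CCAAT (33.8%), TGTGGT (14%), TGAGTCA (4.46%), GTAAACA (3.17%) and GACCACCCA (0.225%). A match is a description of letters only.
Cxcl12, chr6:117168285-117168534, plus strand: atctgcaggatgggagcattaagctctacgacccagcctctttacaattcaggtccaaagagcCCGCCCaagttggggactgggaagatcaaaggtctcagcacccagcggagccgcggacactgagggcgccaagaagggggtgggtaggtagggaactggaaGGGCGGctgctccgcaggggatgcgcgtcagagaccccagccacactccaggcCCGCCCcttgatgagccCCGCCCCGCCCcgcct
Csf1, chr3:107760470-107760719, minus strand: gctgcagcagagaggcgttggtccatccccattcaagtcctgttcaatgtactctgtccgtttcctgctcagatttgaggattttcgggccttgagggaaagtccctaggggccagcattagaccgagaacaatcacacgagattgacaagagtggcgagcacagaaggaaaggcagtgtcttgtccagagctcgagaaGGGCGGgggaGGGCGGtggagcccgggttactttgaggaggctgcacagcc
Tnfsf11, chr14:78308044-78308293, minus strand: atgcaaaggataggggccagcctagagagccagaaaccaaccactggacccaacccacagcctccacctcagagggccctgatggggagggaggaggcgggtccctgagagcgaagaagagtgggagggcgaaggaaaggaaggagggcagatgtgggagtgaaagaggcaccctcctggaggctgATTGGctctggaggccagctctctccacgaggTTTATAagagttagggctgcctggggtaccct
Cxcl12 and Csf1 held GGGCGG and no TATAAA in this window. Tnfsf11 held TATAAA and CCAAT and no GGGCGG. GC content was 64.4% for Cxcl12, 56.4% for Csf1 and 60.4% for Tnfsf11, against a median of 52.4% over all windows.

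The balance of RANKL to OPG sets how much RANKL is free to act on osteoclast precursors, and it was taken here as the log2 ratio of Tnfsf11 to Tnfrsf11b counts in each input, with 2 counts added to each. The ratio was -6.57 and -6.18 in SSC, -5.83 and -4.49 in pre-BCSP, and -5.43 and -8.42 in BCSP. It was -0.46 and -1.62 in PCP, -1.38 and -1.60 in BLSP, -2.92 and -3.55 in THY, -3.71 and -4.55 in 6C3, and -5.70 and -5.20 in HEC. OPG counts exceeded RANKL counts in every library, by 72.4 and 95.2 times in SSC and by 1.38 and 3.08 times in PCP. PCP and BLSP were high, HEC lay in the range of the stem and progenitor populations, and BCSP had the widest gap between replicates. The mean over downstream populations was above that over stem and progenitor populations by 3.08 on the log2 scale. No test was made of this ratio, which joins genes chosen with their levels known.

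**Figure D2:**
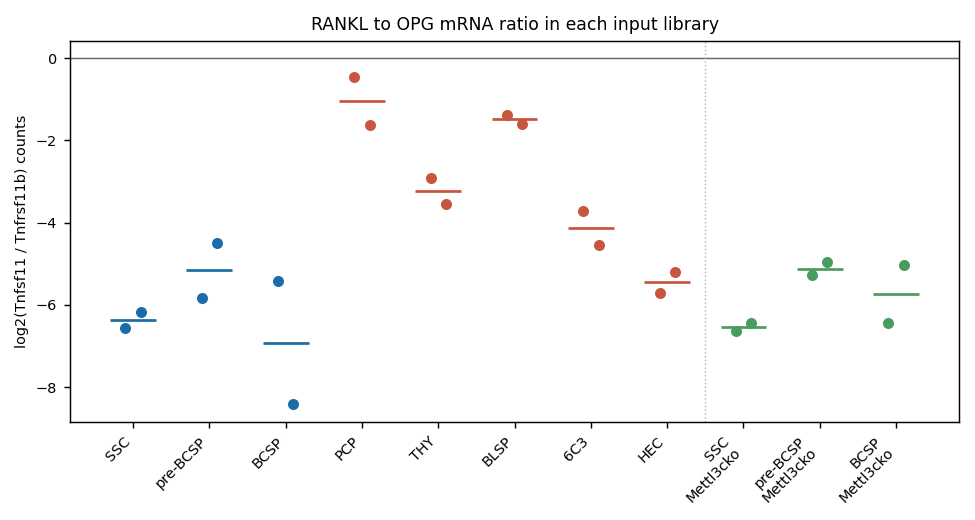
The log2 ratio of Tnfsf11 (RANKL) to Tnfrsf11b (OPG) counts is plotted for each input library; points are libraries, bars means of 2, blue WT stem and progenitor, red WT downstream, green Mettl3cko, and the line at 0 equal counts. PCP and BLSP came closest to 0, between -1.62 and -0.46.

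By likeness over the 16 WT inputs (Pearson's r of log2 CPM, a description over libraries that share their populations), Kitl was most like Gbp2 (r = 0.982), Col4a2 (0.977) and Cyp1b1 (0.977). Vcam1 was most like Slit3 (0.974), Wnt10b (0.973) and Ckap2 (0.968). Csf1 followed Ncapd2 (0.968), Smarcd2 (0.964) and Il13ra1 (0.964), and Tnfrsf11b followed Glrx (0.956), Tubb2a (0.947) and Creb3 (0.940). Angpt1 came closest to Steap4 (0.931), RP23-49I18.5 (0.824) and Mmp13 (0.822), and Cxcl12 to Gdpd2 (0.929), Serpina3h (0.927) and Kitl (0.923). Tnfsf11 tracked Thsd1 (0.919), B4galnt1 (0.913) and Angptl4 (0.911). Lepr tracked Rnf125 (0.897), 1200007C13Rik (0.871) and Clca3a1 (0.870), and Il7 tracked Cd36 (0.878), Akr1c14 (0.864) and Bub1b (0.860). Among the members themselves r was highest between Kitl and Vcam1 (0.955) and lowest between Kitl and Tnfrsf11b (-0.833).

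The receptors and neighbours of these signals were read from 4 lists in the same contrast, in which 28.3% of all genes tested were lower and 23.1% higher. Of 14 receptors and partners of the members 12 were tested, of which 1 was higher in the stem and progenitor populations, 4 were lower and 7 did not pass (median -0.78, against -0.11 over all genes). Among those 7, the differences of Tek and Lep were not determined (SE 5350 and 525). Tek averaged 0.381 CPM in stem and progenitor and 3.25 CPM in downstream inputs. Lgr4, a receptor that also binds RANKL, was higher (0.78 ± 0.14, adjusted p = 0.000196), while the integrin subunits Itga4 (-3.06 ± 0.61) and Itgb1 (-1.16 ± 0.095), the cytokine receptor chain Il2rg (-2.67 ± 0.30) and Kit (-0.77 ± 0.31, adjusted p = 0.0452) were lower. Several receptors carried by blood cells were low: Cxcr4 and Il7r had too few counts to be tested, Tnfrsf11a averaged 0.118 CPM in stem and progenitor and 0.380 CPM in downstream inputs, and Csf1r averaged 0.745 and 1.24 CPM, neither of them called.

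Among 25 other niche factors, 23 were tested, of which 3 were higher, 13 lower and 7 did not pass (median -0.99). The higher ones were Il11 (1.19 ± 0.21), Spp1 (osteopontin, 0.99 ± 0.24) and Dlk1 (0.64 ± 0.21). The most negative differences were those of Ccl2, a monocyte chemokine (-6.51 ± 0.39; 5.57 ± 4 against 580 ± 456 CPM, SD over 6 and 10 inputs), Il6 (-5.15 ± 0.41; 0.808 ± 0.793 against 28.4 ± 14.8 CPM) and Ptn, pleiotrophin (-3.57 ± 0.13). Of 15 genes of reticular stroma, 2 were higher, Foxc1 (0.90 ± 0.21) and Pparg (0.68 ± 0.21), 12 were lower and 1 did not pass (median -1.42). Adipoq (-3.30 ± 0.70), the transcription factor Ebf2 (-3.29 ± 0.25) and the lipase Lpl (-2.92 ± 0.14) differed most. Of 14 other regulators of osteoclasts 13 were tested, 4 higher, 7 lower and 2 not passing (median -0.44). Dkk1 (2.16 ± 0.81), the vitamin D receptor Vdr (1.72 ± 0.14) and the parathyroid hormone receptor Pth1r (1.5 ± 0.11) were higher. Wnt16 (-4.17 ± 0.60), Sost (-3.86 ± 1.27) and Slit3 (-3.29 ± 0.24) were lower, but Dkk1 and Sost averaged under 1 CPM in both groups.

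The next question was whether the members were m6A-tagged, which the study defined as a log2 ratio of IP to input above 1 with an unadjusted p under 0.05. None of the 72 tests (9 members in 8 WT populations) met this rule in edgeR, and none in DESeq2. Over all genes it was met by 10.4% of those tested in SSC, 12% in pre-BCSP and 6.67% in BCSP. Downstream the share was 10.6% for PCP, 12.4% for both THY and BLSP, 14.5% for 6C3 and 13.5% for HEC. Both directions counted, 24 of the 72 tests had an unadjusted p under 0.05. Of all genes this held for 30.3% in SSC, 35.5% in pre-BCSP and 24.6% in BCSP, and downstream for 30.7% (PCP), 39.2% (THY), 40.4% (BLSP), 39.4% (6C3) and 43.7% (HEC), so that the share of the members was near that of all genes.

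Values above 0 were most regular for Angpt1, whose log2 ratio lay between 0.18 and 1.43 and was above 0 in 16 of 16 pairs of IP and input. Il7 was above 0 in 14 of 16 pairs, with a range from -1.33 to 1.57. In edgeR the ratios of Angpt1 were between 0.45 and 0.81 and those of Il7 between 0.16 and 1.09, with no unadjusted p below 0.0808.

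Csf1 and Tnfrsf11b lay at the other end, with IP below input in 16 of 16 pairs each. For Csf1 the log2 ratio of the pairs ran from -2.71 to -0.67 with a median of -2.03, and for Tnfrsf11b from -2.31 to -1.14 with a median of -1.76. In THY, for example, Csf1 held 435 and 461 CPM in the inputs and 102 and 110 CPM in the IPs, and Tnfrsf11b 154 and 157 against 56.6 and 44.3 CPM. In SSC, Csf1 held 104 and 62.4 CPM in the inputs and 24.4 and 22.8 CPM in the IPs, and Tnfrsf11b 534 and 292 against 111 and 58.9 CPM. IP values were thus below input values for both genes in these populations. The share of all genes on 1 side of input in all 16 pairs, or without overlap in 1 population, was not counted. By the mirror image of the tagging rule (log2 ratio below -1, unadjusted p under 0.05), chosen after the data had been seen, 15 of 72 tests were called, Tnfrsf11b in all 8 populations and Csf1 in all but BCSP. Over all genes this held for 13.9% in SSC, 14.8% in pre-BCSP and 11.7% in BCSP, and downstream for 14.5% (PCP), 15% (THY), 14.8% (BLSP), 17.0% (6C3) and 14.2% (HEC). The edgeR log2 ratio of Csf1 was most negative in 6C3 (-2.19 ± 0.25, adjusted p = 0.0028) and least in BCSP (-0.97 ± 0.27, adjusted p = 0.0929), and that of Tnfrsf11b ranged from -2.25 ± 0.43 in SSC (adjusted p = 0.0403) to -1.46 ± 0.27 in PCP (adjusted p = 0.0223) and -1.46 ± 0.28 in HEC (adjusted p = 0.00504).

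**Figure D3:**
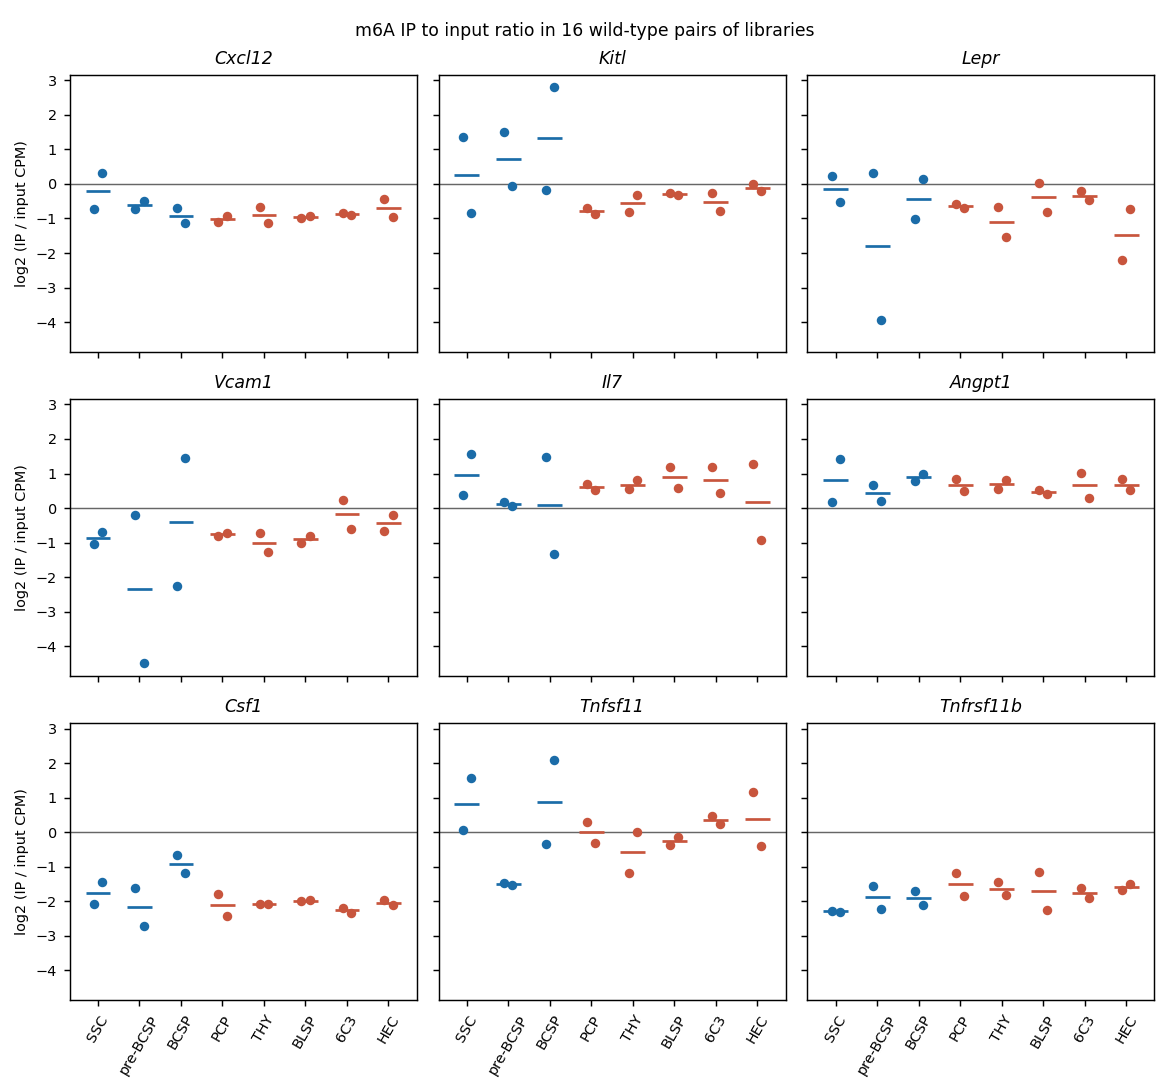
The log2 ratio of IP to input CPM is plotted for the 9 members in each WT population; points are the 2 pairs of libraries, bars their mean, blue stem and progenitor, red downstream, and the line at 0 equal CPM. Csf1 and Tnfrsf11b lay below 0 in all 16 pairs and Angpt1 above 0 in all 16.

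Cxcl12 and Vcam1 sat between these extremes, with IP below input in 15 and 14 of 16 pairs and medians of -0.88 and -0.725. Cxcl12 had an adjusted p under the threshold in 6C3 (-0.82 ± 0.25, adjusted p = 0.0463) and Vcam1 in BLSP (-0.82 ± 0.17, adjusted p = 0.0156). Tnfsf11 was below input in 8 pairs and above it in 8. Replicates of the low genes disagreed in the stem and progenitor populations: Vcam1 gave -0.21 and -4.49 in pre-BCSP, Lepr 0.31 and -3.93 in pre-BCSP, and Kitl -0.17 and 2.80 in BCSP.

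The letters GGACT, the commonest core of the m6A motif, were counted in the longest coding transcript of each member (GENCODE vM21), to set the IP ratios beside the sequence. Csf1 held 6 copies in 4176 bases (1.44 per kilobase, above 72.3% of 21877 genes), and Tnfrsf11b 2 copies in 2818 bases (0.71 per kilobase, above 32.7%). Angpt1 held 2 in 4260 bases (0.469 per kilobase, above 20.5%) and Il7 4 in 4858 bases (0.823 per kilobase, above 39.2%). Cxcl12 held the most, 10 in 5627 bases (1.78 per kilobase, above 83.1%), all outside its coding part. The median over all genes was 1.01 per kilobase, and 87.6% of genes held at least 1 copy. The order of the members by GGACT density was therefore not that of their IP ratios. Sites of the genes with the lowest and the highest ratios are shown with 10 bases on each side and GGACT in capitals.
Csf1, coding, chr3:107753739-107753763, minus strand: gcttcaccaaGGACTatgaggagca
Csf1, coding, chr3:107750355-107750379, minus strand: tccttgaaaaGGACTggaacatttt
Angpt1, coding, chr15:42459724-42459748, minus strand: ttgagctgatGGACTgggaagggaa
Angpt1, coding, chr15:42426965-42426989, minus strand: tccggcccttGGACTtttgaaggtg
Tnfrsf11b, 3′ UTR, chr15:54251827-54251851, minus strand: cacacactggGGACTctgagtccgg
Il7, 3′ UTR, chr3:7572250-7572274, minus strand: ttttgttaatGGACTttcgataact

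With IP and input unpaired, no member's ratio differed among the 8 WT populations (edgeR, 32 libraries, adjusted p between 0.564 and 1). Over all genes, 0.485% of 25365 passed. Of the members, 1 of 9 had an unadjusted p under 0.05, beside 7.97% of genes, and DESeq2 called 0 of 9. Between stem and progenitor and downstream populations none of 9 members was called, beside 4.84% of genes, although 2 had an unadjusted p under 0.05, beside 15.7%, and DESeq2 called none. The 2 were Kitl, with a ratio higher in the stem and progenitor populations by 1.18 ± 0.36 (adjusted p = 0.0523), and Csf1, higher by 0.52 ± 0.19 (adjusted p = 0.144). The Kitl counts behind this were low, from 37 to 307 in the 6 stem and progenitor IPs, and Kitl also passed without the first BCSP input (1.66, adjusted p = 0.0042), the second pre-BCSP input (1.43, adjusted p = 0.0265), the second SSC IP (1.29, adjusted p = 0.0298) or the first PCP IP (1.25, adjusted p = 0.0412). Csf1 passed without the second pre-BCSP IP (0.66, adjusted p = 0.029). In edgeR with same-numbered IP and input paired, Csf1 differed among the 8 populations (adjusted p = 0.037). Between stem and progenitor and downstream, the paired fit called Kitl (1.25, adjusted p = 0.00186) and Csf1 (0.51, adjusted p = 0.04). Mitochondrial genes took 1.56% to 2.92% of counts in the stem and progenitor IPs and 4.53% to 9.10% in the downstream IPs, and the part of this in the ratios was not tested.

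Mettl3cko was compared with WT in the inputs of SSC, pre-BCSP and BCSP, 2 libraries against 2. None of the 27 tests passed an adjusted p under 0.05 in the reported edgeR fits, where 0% of genes passed in SSC, in pre-BCSP and in BCSP. Unadjusted, 7 of the 27 had a p under 0.05, beside 14.7%, 8.37% and 13% of genes. DESeq2 called 2, Cxcl12 in SSC (adjusted p = 0.0488) and Csf1 in BCSP (adjusted p = 0.0147). By the study's rule for expression (log2 difference beyond 0.5, unadjusted p under 0.05) 3 members were called in SSC, beside 14% of genes, 3 in pre-BCSP, beside 8.36%, and 1 in BCSP, beside 12.9%.

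The Cxcl12 difference had opposite signs in SSC and pre-BCSP, and the reported edgeR fits called neither. With no filter on low counts edgeR called both, SSC (-1.14, adjusted p = 0.00717) and pre-BCSP (1.26, adjusted p = 0.0212). That setting called 793 genes in SSC and 245 in pre-BCSP. In SSC Cxcl12 held 46.1 and 23.6 CPM in WT and 15.3 and 16 CPM in libraries labelled Mettl3cko (log2 difference -1.15 ± 0.33, edgeR adjusted p = 0.211). In pre-BCSP it held 18.5 and 32.9 CPM in WT and 37.6 and 84.2 CPM in Mettl3cko (1.26 ± 0.48, adjusted p = 0.569). In BCSP the Mettl3cko values of 60.9 and 43.1 CPM lay between the WT values of 106 and 24.4 CPM (-0.34 ± 0.58). The test of whether the genotype difference varied among the 3 populations called no gene of 18655 (0%) and gave Cxcl12 an adjusted p of 0.941 (unadjusted 0.0398), with 2 of 9 members at an unadjusted p under 0.05, beside 4.5% of genes. With no filter on low counts the adjusted p of Cxcl12 in this test of variation was 8.02e-05, and in DESeq2 it was 0.441.

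Csf1 held 136 and 137 CPM in Mettl3cko SSC against 104 and 62.4 in WT (0.71 ± 0.25, adjusted p = 0.265), and 106 and 136 against 60 and 67.4 CPM in BCSP (0.92 ± 0.23, adjusted p = 0.243). In pre-BCSP its values of 66.6 and 88.3 CPM lay just below those of WT, 88.8 and 89.0 CPM (-0.18 ± 0.24). Kitl held 8.64 and 7.75 CPM in Mettl3cko pre-BCSP against 1.36 and 3.20 in WT (1.86 ± 0.60, adjusted p = 0.569). In SSC Kitl held 3.00 and 4.78 against 1.68 and 2.47 CPM, and in BCSP 5.20 and 7.86 against 6.46 and 1.45 CPM. Vcam1 in pre-BCSP held 14.3 and 13.1 against 6.21 and 8.04 CPM (0.96 ± 0.37, adjusted p = 0.577), and Lepr in SSC 3.31 and 2.09 against 10.3 and 4 CPM (-1.40 ± 0.59, adjusted p = 0.335).

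**Figure D4:**
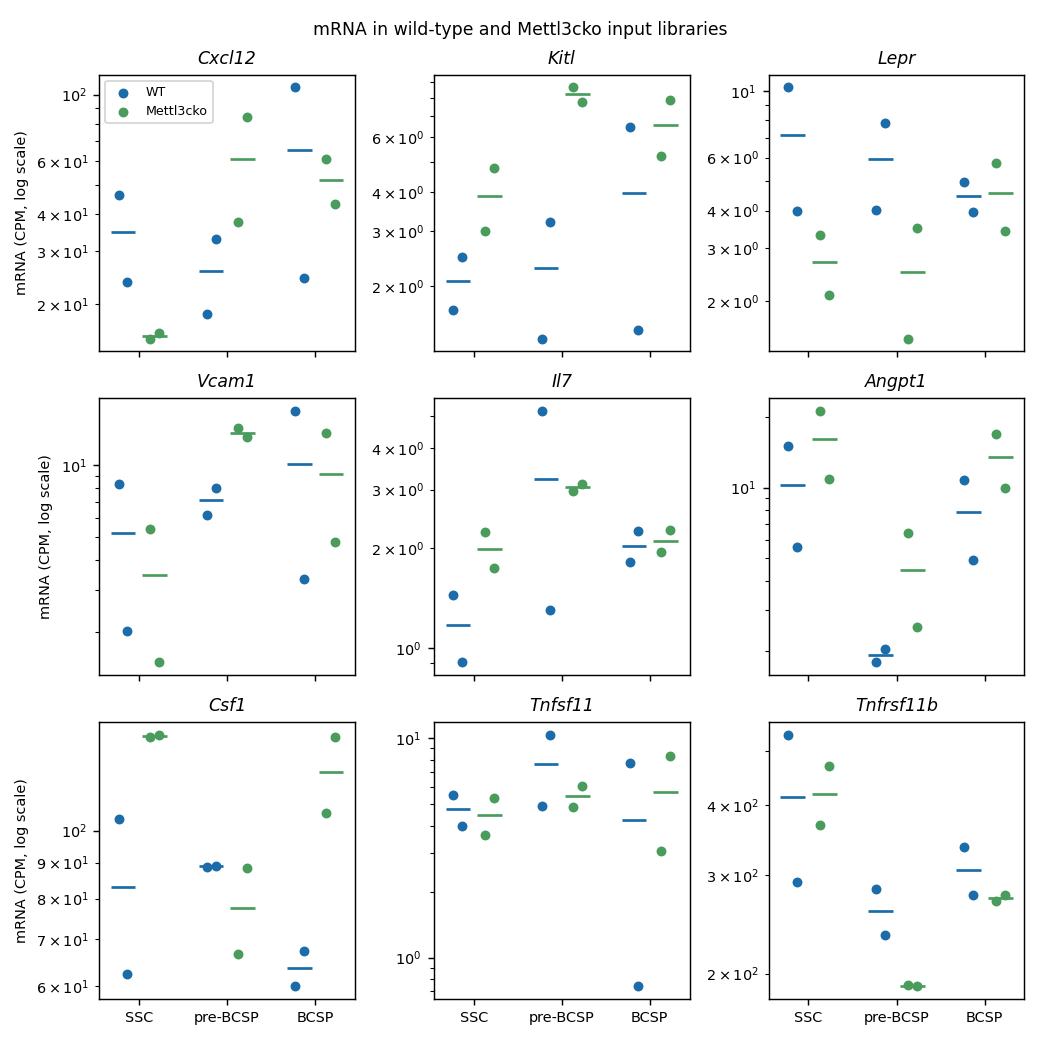
CPM on a log axis is plotted for the 9 members in SSC, pre-BCSP and BCSP inputs; points are the 2 libraries, bars their mean, blue WT and green Mettl3cko. The Cxcl12 mean was lower in Mettl3cko in SSC and higher in pre-BCSP. The reported edgeR fits called neither difference (adjusted p = 0.211 and 0.569), and edgeR with no filter on low counts called both (adjusted p = 0.00717 and 0.0212).

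Over the 3 populations together, 6 inputs against 6, no member passed an adjusted p under 0.05 in edgeR, beside 6.48% of 18655 genes. Unadjusted, 4 of 9 had a p under 0.05, beside 22.4% of genes, and DESeq2 called 2, Kitl (adjusted p = 0.0372) and Csf1 (adjusted p = 0.0121). The mean log2 difference was 1.17 ± 0.40 for Kitl (adjusted p = 0.109), 0.89 ± 0.35 for Angpt1 (adjusted p = 0.157), 0.49 ± 0.14 for Csf1 (adjusted p = 0.0662) and -0.86 ± 0.37 for Lepr (adjusted p = 0.188). Leaving out the first WT BCSP input brought Kitl past the threshold (1.64, adjusted p = 0.0385), as did leaving out the first WT SSC input (0.62, adjusted p = 0.0335) or the first Mettl3cko pre-BCSP input (0.55, adjusted p = 0.0454) for Csf1. OPG and RANKL were close to 0 in this mean, with -0.18 ± 0.15 for Tnfrsf11b (adjusted p = 0.514) and -0.04 ± 0.48 for Tnfsf11 (adjusted p = 1). The log2 ratio of RANKL to OPG was -6.64 and -6.44 in Mettl3cko SSC, -5.28 and -4.95 in pre-BCSP, and -6.43 and -5.04 in BCSP, overlapping with the WT values in each population. Erythroid markers were higher in the inputs labelled Mettl3cko, as given above. In pre-BCSP the chondrocyte genes summed to 91000 and 94900 CPM in WT and to 63500 and 56100 CPM in Mettl3cko, while in SSC and BCSP they overlapped. Over the 3 populations the mural genes summed to 463 to 680 CPM in WT and 577 to 751 CPM in Mettl3cko. The osteoclast genes summed to 95.4 to 144 CPM in WT and 66.7 to 117 CPM in Mettl3cko. The part of these cells in the differences was not tested here either.

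In the same mean difference 6.48% of 18655 genes passed in edgeR, 700 higher and 508 lower in libraries labelled Mettl3cko. Of 23 tested niche factors 2 were higher and none lower, Ccl2 (1.74 ± 0.47, adjusted p = 0.0469) and Ptn (1.15 ± 0.23, adjusted p = 0.0138). Of the 15 genes of reticular stroma 3 were higher, Ebf1 (0.57 ± 0.15), Ebf2 (1.82 ± 0.30) and Nes (1.22 ± 0.20), and Grem1 was lower (-0.63 ± 0.14). These were named after their values were seen. None of 10 tested receptors and none of 12 tested regulators of osteoclasts passed.

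The IP libraries labelled Mettl3cko held more genes at 0 counts than the WT IPs, low members included. Of 54 values of the 9 members in these 6 IPs, 12 were at 0 counts, against 0 of 144 in the 16 WT IPs. The WT IPs include the downstream populations, where most members had more mRNA. In the WT IPs of SSC, pre-BCSP and BCSP alone, no member was at 0 either. Over the 5253 genes with a mean of 1 to 10 CPM in the 12 inputs of these populations, 29.3% to 46.0% were at 0 in each Mettl3cko IP and 5.31% to 16.3% in each WT IP. The correlation of log2 CPM between the 2 replicates was 0.769 to 0.812 for Mettl3cko IPs and 0.882 to 0.906 for WT IPs of the same populations. Lepr held 26 and 2275 counts in the 2 Mettl3cko SSC IPs, and Kitl 0 and 531.

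Il7 was at 0 in 5 of the 6 Mettl3cko IPs, the most of the 9 members, with 0 counts in both IPs of SSC and of pre-BCSP and 343 and 0 counts in BCSP. WT IPs held 36 and 77 counts in SSC, 170 and 51 in pre-BCSP, and 152 and 25 in BCSP, while its inputs held 54 to 101 counts in Mettl3cko and 26 to 156 in WT. The Mettl3cko IPs were given a floor of 3 counts per library, and the WT ratio was taken from means without their spread. On these terms the measured Mettl3cko ratio of IP to input was below WT by at least 29.4-fold in SSC and 31.0-fold in pre-BCSP. This floor covers counting error of the Mettl3cko IPs only. Many genes of like level were at 0 in these IPs, so the folds do not bound the ratio in the cells. In single populations edgeR called Il7 neither in SSC (adjusted p = 0.183) nor in pre-BCSP (adjusted p = 0.213). Over the 3 populations Il7 was the only member called (edgeR, adjusted p = 0.0482), 1 of 9 beside 3.94% of 20360 genes. This call was lost when any 1 of 20 of the 24 libraries was left out (adjusted p between 0.0531 and 0.124), the exceptions being the first Mettl3cko IP of SSC, the first of pre-BCSP and both of BCSP. With same-numbered IP and input paired, Il7 was not called (edgeR, adjusted p = 0.222). A fitted fold change is not given, since it depends on how counts of 0 are offset.

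Tnfsf11 was at 0 in 3 of these 6 IPs, with 68 and 0 counts in SSC, 0 and 10 in pre-BCSP, and 0 and 6 in BCSP IPs labelled Mettl3cko, against 50 to 325 counts in the 6 WT IPs. It was not called over the 3 populations (edgeR, adjusted p = 0.187), but was by DESeq2 (adjusted p = 0.0327) and without the first Mettl3cko SSC IP (adjusted p = 0.00872). Within single populations none of the 27 tests passed in edgeR, where 0% of genes passed in SSC, pre-BCSP and BCSP, and 2 had an unadjusted p under 0.05, beside 14.5%, 11.9% and 10.3% of genes, while DESeq2 called 2, Il7 in SSC (adjusted p = 0.000452) and in pre-BCSP (adjusted p = 0.00686). Csf1 and Tnfrsf11b were below input in 6 of 6 pairs labelled Mettl3cko, as in WT, with log2 ratios from -3.69 to -0.92 and from -3.42 to -1.07. Scaling each library by TMM makes all these ratios relative to other genes. A loss of m6A shared by most genes would not be seen in them.

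**Figure D5:**
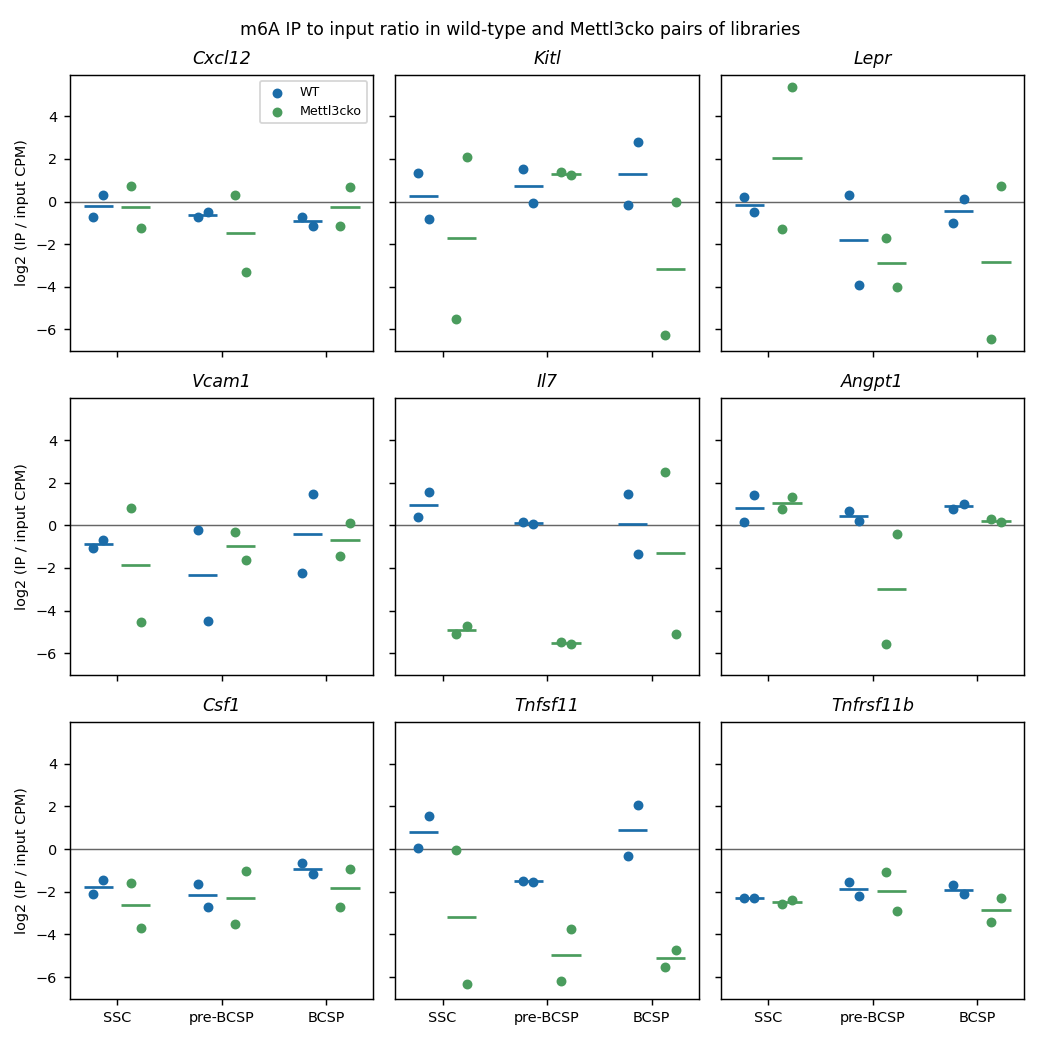
The log2 ratio of IP to input CPM is plotted for the 9 members in WT (blue) and Mettl3cko (green); points are the 2 pairs of libraries, bars their mean, and the line at 0 equal CPM. Csf1 and Tnfrsf11b lay below 0 in all 6 Mettl3cko pairs, and points near -5 are IPs at or near 0 counts.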

How the data were processed

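m6A-IP and input RNA of sorted mouse cells were sequenced with a Smart-seq2-based, unstranded method, 2 libraries per condition in 22 conditions. The deposited values are raw counts per gene, made by the authors with fastp 0.20.1, HISAT2 2.2.1 and featureCounts 2.0.1 on GRCm38, per the submitters' processing notes and methods. The strand setting of counting is not given in the sources used here, so that overlapping genes cannot be told apart. Of 46959 rows, 128 had turned into dates (such as 1-Mar) and were left out, at most 0.39% of a library's counts. Tables of the authors' own comparisons were not used.

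Counts were tested with edgeR 4.0.16 (R 4.3.3; low-count filter, TMM, quasi-likelihood F tests, Benjamini-Hochberg over all genes tested, adjusted p under 0.05), which was tested on simulated data. Simulated counts had the same dispersion for every gene and no excess of zeros, so they do not check the ratios of the Mettl3cko IPs. Inputs were fitted for mRNA, and IP with input for the ratio. Each SE was worked back from the test, as the absolute log2 difference divided by the square root of its F statistic. CPM were computed with TMM library sizes, so that IP to input ratios are relative to other genes. DESeq2 1.42.0, other scalings, no filter, a replicate block and leaving out each library were alternatives. Figures were drawn with matplotlib 3.10.9.

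The study describes the replicates as biologically independent, and replicate libraries differed beyond sampling noise (chi-square of their counts divided by its degrees of freedom, 25.9 to 491).

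The members and lists were chosen with earlier results of these data known. All 9 members were named, with the list genes of largest difference in each direction and, for each member, the 3 genes with the highest r.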

Additional observations from a re-analysis of the deposited data

How the results depend on the processing

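The count of members called across WT populations stayed at 9, and that between stem and progenitor and downstream populations at 8, under DESeq2, DESeq2 size factors, library size alone, no filter and the replicate block; without the PCP libraries the latter was 6. Leaving out 1 library gave 8 to 9 and 7 to 9. The RANKL to OPG ratio difference ranged from 2.59 to 3.58.

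For the IP to input ratio, tagging calls were 0 (0 to 2 with 1 library left out) and depletion calls 15 (15 to 18), or 15 to 20 under the other settings: 16 with DESeq2, 17 with library size alone, 17 with the replicate block and 20 with no filter. The study describes cells of 1 batch as divided between profiling and RNA-seq, but that replicate numbers mark these batches is not stated in the sources used here. Deviations of same-numbered IP and input libraries correlated with r between 0.0225 and 0.24, over 0.1 in 3 of 11 pairs. Those of WT and Mettl3cko inputs correlated with r between -0.0034 and 0.00789. The reported fits left IP and input unpaired, although r was above 0 in all 11 pairs, and for ratios the replicate block pairs them by number. A replicate block moved the count of members from 0 to 1 across populations (Csf1, adjusted p = 0.037) and from 0 to 2 between stem and progenitor and downstream (Kitl, 1.25, adjusted p = 0.00186, and Csf1, 0.51, adjusted p = 0.04), where no filter gave 1 (0 to 0 and 0 to 1 with 1 library left out).

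For mRNA in Mettl3cko against WT, the count of 0 of 27 became 2 with DESeq2, 3 with no filter and 7 with the study's rule (0 to 0 with 1 library left out), and the count of 0 of 9 over 3 populations became 2, 3 and, with the replicate block, 1 (Angpt1, adjusted p = 0.0498; 0 to 1). For ratios, 0 of 27 became 2 with DESeq2 (0 to 4), and 1 of 9 became 2 with DESeq2 and 0 with the block (Il7, adjusted p = 0.222; 0 to 2). The cause was not tested. The replicate block changed no other count of members.

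With 1 library left out, the sign changed in 56 of 162 member values (23 of 36 ratio differences between Mettl3cko and WT among them), in 54 without a call in either fit. The 2 others were the Lepr ratio in WT SSC (-1.35 to 0.87) and the Kitl ratio difference in SSC (-10.12 to 2.07). No value with an unadjusted p under 0.05 in the reported fit changed sign (0 of 49). Over all genes, calls differed more than 1.5 times: across WT ratios 123 against 999 (DESeq2), 866 (no filter) and 923 (block), over 3 populations 1208 against 2408 and 2200 for mRNA, and 803 against 2239, 1411 and 204 for ratios. Between stem and progenitor and downstream ratios, 1227 became 1953 with DESeq2. Their split into 777 higher and 450 lower turned to 427 and 628 with DESeq2 size factors, where the median of all genes was -0.24 against -0.08, to 749 and 1204 with DESeq2 and to 578 and 838 with no filter. With library size alone the median ratio in THY moved from -0.02 to -0.18. Where edgeR called 0 genes in a single population, DESeq2 called 661, 158 and 548 for mRNA and 1755, 983 and 717 for ratios, no filter 793, 245 and 540 and 90, 476 and 129, and the block 288, 0 and 46 for mRNA. The varying genotype difference gave 0 against 41, 80 and 2 for mRNA and 58 against 692, 283 and 0 for ratios. In refits of the 32 ratio libraries, the tested genes and dispersion trend were kept. An arm left with 1 library was assumed to vary like the others.

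With 2 libraries per group, and 16480027 to 44046651 counts, low members such as Il7 rest on few counts.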
